A study of Mus musculus with 70 samples.

Results

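The respiratory chain and ATP synthase genes were taken from the gene table by symbol: subunits of complex I (Nduf), complex II (Sdha to Sdhd), complex III (Uqcr), complex IV (Cox4 to Cox8) and ATP synthase (Atp5), with the protein genes of the mitochondrial genome (mt-). The rule found 92 nuclear and 13 mitochondrial genes among the 23078 in the file. The 92 nuclear ones are 36 of complex I, 4 of complex II, 8 of complex III, 20 of complex IV counting Ndufa4 and Ndufa4l2, 15 of ATP synthase (complex V), and 9 assembly factors or other proteins whose symbols share these stems. The 13 genes of the mitochondrial genome are 7 of complex I, 1 of complex III, 3 of complex IV and 2 of ATP synthase. The 2 sets are described apart, since a cell transcribes them in different compartments.

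The samples were cells sorted for green fluorescence from the dorsal cortex of C57Bl/6 mice labelled wild type, with RNA sequenced from each sort. Newborn neurons (NBN) and basal progenitors (BP), which divide outside the ventricular zone, came from Tbr2::GFP animals, and neural stem cells (NSC) from Hes5::GFP animals. There were 14 NBN libraries over 5 stages from E15.5, 23 BP libraries over 8 stages from E12.5 and 33 NSC libraries over 10 stages from E10.5, all ending at PN, the first postnatal day. The 23 groups held 2 to 4 libraries each. All groups carried a reporter transgene, and no untreated or unsorted sample was compared. NSC and the other 2 cell types thus differ in reporter line as well as in cell type, and the 2 cannot be told apart. The sources used here do not give how NBN and BP were separated from the same line. Nothing in the labels ties a replicate to an animal of its own, so p-values measure only the spread of these samples, and that spread may be technical.

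In background terms, complexes I to IV pass electrons from NADH and succinate to oxygen, all but complex II pump protons across the inner mitochondrial membrane as they do so, and ATP synthase uses the gradient. Complex II alone is wholly nuclear encoded and is also an enzyme of the tricarboxylic acid cycle. Neural stem cells of the early cortex are described as largely glycolytic, and neurons as reliant on oxidative phosphorylation.

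Levels are TPM, length-corrected shares of all transcripts that sum to the same total in each library and keep no sequencing depth. Depth is therefore unknown, and in such bulk samples fewer cells of a type and less RNA per cell cannot be told apart. Hes5, the gene behind the NSC reporter, had a median of 2.86 TPM in NBN and 4.00 in BP libraries, against 111 TPM in NSC. Eomes, which encodes Tbr2, had medians of 22.4 TPM in NBN and 407 in BP, against 265 in NSC. A single PN library is labelled NSC in its title and basal progenitor in its cell type field. It was kept as NSC PN replicate 3, and leaving it out moved no count of members called by more than 1.5 times. All 70 libraries are labelled female, yet 4 Y-linked transcripts summed to over 5 TPM in 46 of them.

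Sdha, Sdhd and Atp5g2 were lower in NSC at E13.5 to E15.5 than at E10.5 and E11.5. Ndufb2 was higher at the later of these stages, and Ndufaf5 was higher in NBN than in NSC or BP. The promoters of these 5 nuclear members, picked for these differences, are shown here. Each runs 5′ to 3′ on the gene's strand from 250 bases before the RefSeq start to 50 after it, on build GRCm38.p6. The genes span 13:74322254-74350280 (Sdha, minus strand), 9:50596357-50603812 (Sdhd, minus), 15:102662864-102672352 (Atp5g2, minus), 6:39592574-39603382 (Ndufb2, plus) and 2:140170649-140203689 (Ndufaf5, plus) in GENCODE. Capitals mark matches to motifs of regulators known for respiratory chain genes: NRF1 (GCGCA, any base, then GCGC), ETS factors such as GABPA (CCGGAAG) and YY1 (AAGATGGC), searched on both strands. The ETS and YY1 letters can share AAG.
The Sdha window is chr13:74350191-74350490, with NRF1 letters at -98, -55 and -10 relative to the start.
Sdha: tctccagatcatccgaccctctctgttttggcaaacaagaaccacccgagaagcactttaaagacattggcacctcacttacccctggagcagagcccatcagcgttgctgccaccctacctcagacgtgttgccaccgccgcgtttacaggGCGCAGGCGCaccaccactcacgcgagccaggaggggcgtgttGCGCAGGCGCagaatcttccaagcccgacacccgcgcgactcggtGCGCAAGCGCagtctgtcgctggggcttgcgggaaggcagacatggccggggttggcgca
The Sdhd window is chr9:50603800-50604099, with NRF1 letters at -79 and the reversed ETS letters at -46.
Sdhd: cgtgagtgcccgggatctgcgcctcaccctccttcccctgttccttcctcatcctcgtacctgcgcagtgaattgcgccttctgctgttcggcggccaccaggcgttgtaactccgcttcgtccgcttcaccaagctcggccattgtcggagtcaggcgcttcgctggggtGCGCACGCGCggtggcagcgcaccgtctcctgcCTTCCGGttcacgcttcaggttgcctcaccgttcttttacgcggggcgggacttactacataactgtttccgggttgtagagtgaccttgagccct
The Atp5g2 window is chr15:102670998-102671297, with NRF1 letters at -42.
Atp5g2: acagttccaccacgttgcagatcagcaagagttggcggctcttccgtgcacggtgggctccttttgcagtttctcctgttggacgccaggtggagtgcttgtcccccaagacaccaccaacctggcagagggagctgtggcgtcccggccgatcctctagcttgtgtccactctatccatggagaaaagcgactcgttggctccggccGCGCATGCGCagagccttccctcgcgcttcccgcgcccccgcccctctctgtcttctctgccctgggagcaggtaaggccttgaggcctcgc
The Ndufb2 window is chr6:39592315-39592614 and holds none of the 3 motifs.
Ndufb2: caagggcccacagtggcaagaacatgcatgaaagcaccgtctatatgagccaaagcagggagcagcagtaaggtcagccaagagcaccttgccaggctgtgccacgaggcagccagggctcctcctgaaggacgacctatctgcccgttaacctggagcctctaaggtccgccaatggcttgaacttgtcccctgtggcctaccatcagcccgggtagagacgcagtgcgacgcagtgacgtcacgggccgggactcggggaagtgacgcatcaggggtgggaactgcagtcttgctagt
The Ndufaf5 window is chr2:140170396-140170695, with NRF1 letters 16 bases after the start.
Ndufaf5: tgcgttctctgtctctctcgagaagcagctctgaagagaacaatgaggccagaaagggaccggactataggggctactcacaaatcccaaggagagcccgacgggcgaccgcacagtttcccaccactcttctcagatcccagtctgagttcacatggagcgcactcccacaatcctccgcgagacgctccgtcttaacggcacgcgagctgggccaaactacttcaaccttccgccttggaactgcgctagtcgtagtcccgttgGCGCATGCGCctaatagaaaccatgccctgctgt

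A RefSeq promoter was found for 76 of the 92 nuclear members. NRF1 letters were in 19 of them (25%), against 5.19% of 27025 genes with a promoter and 14.4% of the 5698 of these that averaged 20 TPM or more. ETS letters were in 17 (22.4%), against 9.93% of all genes and 23.7% of genes at 20 TPM or more. YY1 letters were in 11 of the 76, against 3.19% of all genes and 6.51% of those at 20 TPM or more. At least 1 of the 3 was in 41 members (53.9%), against 16.4% of all genes and 38.9% of those at 20 TPM or more. A match describes the letters in this window and not a bound site. The 5 promoters printed do not stand for all members called between these NSC windows. Among others called higher at the later stages, Cox6a1 and Ndufa8 held NRF1 letters, and Ndufc2, Ndufaf3, Ndufc1, Cox8a and Ndufb10 did not. Cox6b2, called lower, held none. Uqcrq and Cox4i2 had no promoter matched. Whether the letters go with the direction of change was not tested.

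The mitochondrial genome supplied most of the members' transcripts. Summed over its 13 genes, the level was 70483 ± 13334 TPM in NBN (SD, n = 14) and 77885 ± 13992 TPM in BP (n = 23), against 54824 ± 11447 TPM in NSC (n = 33). These are 7.05 ± 1.33%, 7.79 ± 1.40% and 5.48 ± 1.14% of all TPM in NBN, BP and NSC. The 92 nuclear members summed to 17617 ± 1550 TPM in NBN and 17026 ± 1588 TPM in BP, against 19027 ± 1928 TPM in NSC. The ratio of the mitochondrial to the nuclear sum was 4.03 ± 0.84 in NBN and 4.63 ± 0.96 in BP, against 2.92 ± 0.70 in NSC. These values pool all stages of a cell type and are a description without a test.

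**Figure D1:**
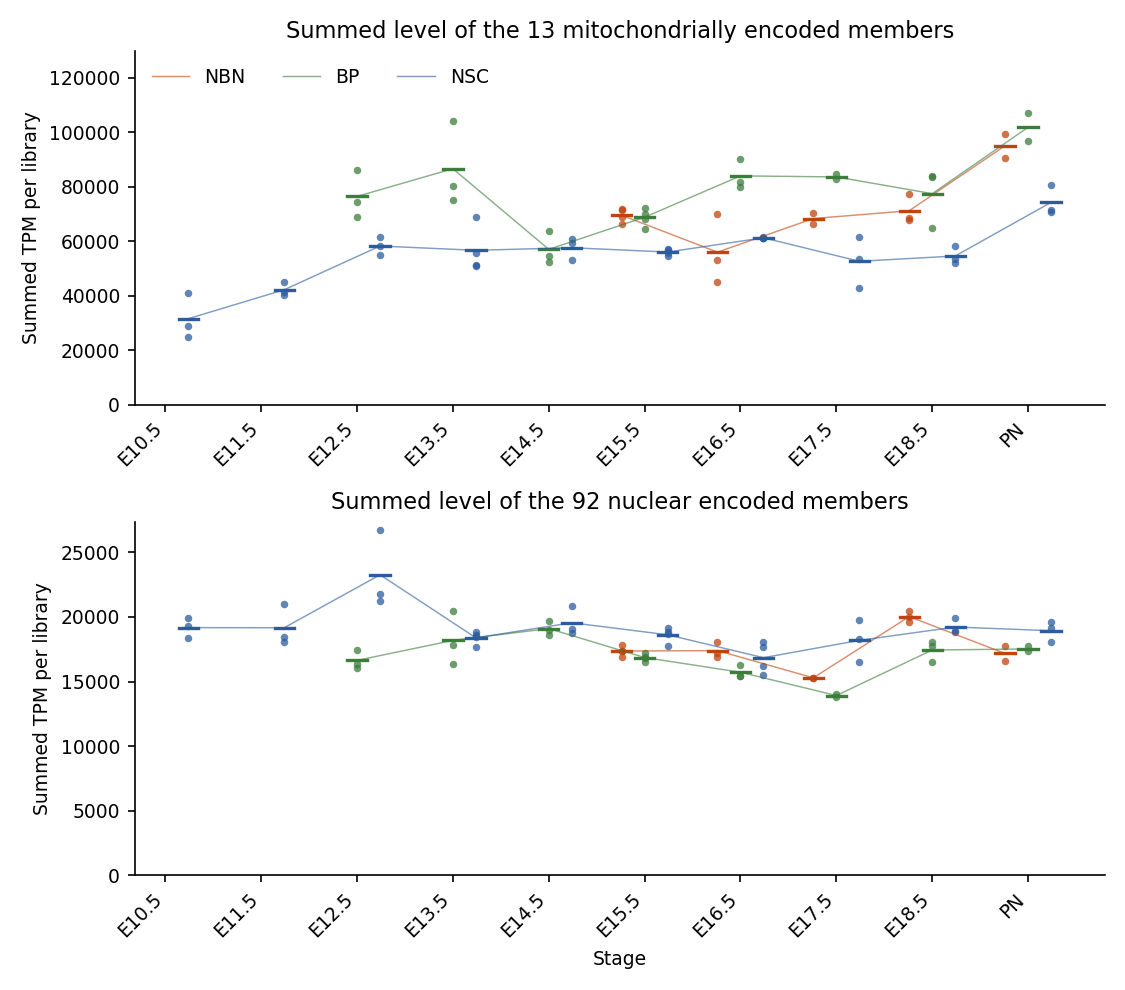
Summed TPM per library (points) of the 13 mitochondrially encoded members (upper panel) and the 92 nuclear members (lower panel) by stage, with NBN, BP and NSC from left to right within a stage, short bars for group means and lines joining them. The mitochondrial sum is lowest in NSC at E10.5, at 24635 to 41054 TPM, and highest at PN in NBN and BP, while the nuclear sum stands highest in NSC at E12.5.

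Stage by stage, the mitochondrial sum of BP lay above that of NSC without overlap at 7 of 8 shared stages, the exception being E14.5. At E14.5 the libraries stood at 54672, 63862 and 52551 TPM in BP, against 59184, 52930 and 60733 TPM in NSC. NBN lay above NSC at 4 of 5 stages, and at E16.5 the NBN libraries spread over 70140, 52950 and 44899 TPM, against 61111 to 61412 TPM in NSC. Of these 3 NBN libraries, 1 lay above and 2 below every NSC library. At PN the sums were 99592 and 90599 TPM in NBN and 107083 and 96671 TPM in BP, against 80734, 70681 and 71435 TPM in NSC, and no NSC library reached the others. NBN lay below BP without overlap at 2 of 5 stages and overlapped it at 3. The nuclear sum of BP lay below that of NSC without overlap at 5 of 8 stages, and that of NBN above BP at 3 of 5. NSC at E12.5 stood apart, with nuclear sums of 21812, 21243 and 26722 TPM, and 41 of the 88 nuclear members tested had their highest group mean there. BP at E17.5 held the lowest group mean of 42 of the 88, with nuclear sums of 13815 and 14027 TPM. The shares of all genes with their highest or lowest group mean in these groups were not counted, so these counts may not be particular to the members.

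Within the nuclear set, single genes of ATP synthase and complex IV had the highest levels. Averaged over the 70 libraries, the highest member of each complex was Atp5b (beta subunit, 1115 TPM), Cox4i1 (683 TPM), Uqcrh (hinge protein of complex III, 491 TPM), Ndufc2 (accessory subunit of complex I, 274 TPM) and Sdhb (iron-sulfur subunit of complex II, 207 TPM), with Ndufaf2 at 60.8 TPM among assembly factors. Of the mitochondrial genes, mt-Co1 averaged 11647 TPM, mt-Atp6 8402, mt-Cytb 5114 and mt-Nd1 3957. Levels of nuclear members varied little between groups: the SD of the 23 group means on the log2(TPM + 1) scale had a median of 0.21 over the 82 nuclear members averaging 20 TPM or more. The same median was 0.36 over all 7613 genes at that level and 0.52 over the 13 mitochondrial genes. The SD between libraries of a group had medians of 0.11, 0.13 and 0.25 in these 3 sets, so mitochondrial genes also varied most between replicates. Of 87 nuclear members with a lowest group mean above 0, 53 changed less than 2 fold between their lowest and highest group, while the 13 mitochondrial genes ranged from 2.01 fold (mt-Co1) to 8.45 fold (mt-Nd4). No test of this contrast in spread was made.

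**Figure D2:**
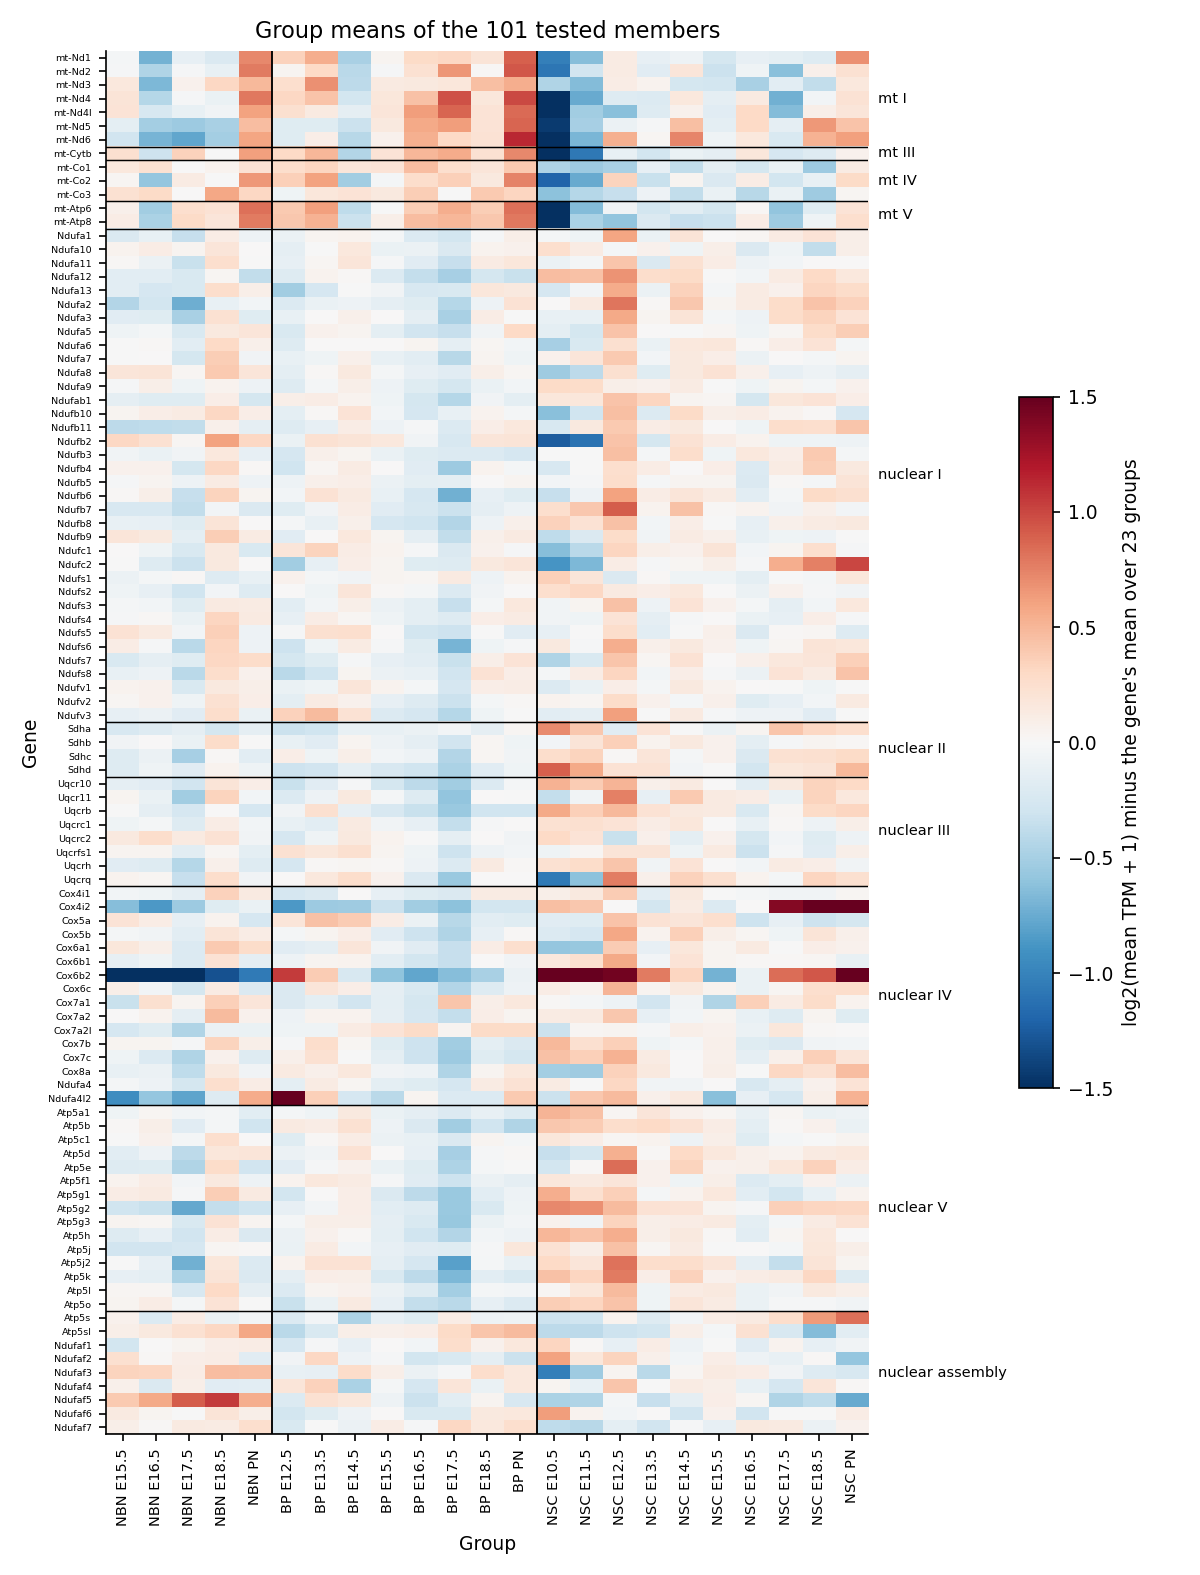
Heat map of the members tested (13 mitochondrial, 88 nuclear, ordered by complex) over the 23 groups, with NBN, BP and NSC columns from left to right; colour gives the log2 of the group mean plus 1, minus the gene's mean over the groups. Most nuclear rows stay pale, and 11 of 13 mitochondrial rows have their lowest group mean in NSC at E10.5. The share of all genes with their lowest group mean there was not counted.

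The tests below used limma on log2(TPM + 1) over the 15508 genes that averaged 1 TPM or more in any group. Calling a gene took a difference of at least 0.5 on the log2 scale (1.41 fold) with its p, adjusted by Benjamini-Hochberg, below 0.05. Of complex IV, 4 nuclear members stayed under 1 TPM in every group and were not tested: Cox6a2, Cox7b2, Cox8b and Cox8c. Over the 7 comparisons between cell types and times, 20 of the 88 nuclear members tested were called at least once and 68 in none. Each of the 13 mitochondrial genes was called at least once. The share of all genes called at least once was not counted. In mid against early NSC alone, 30.3% of all genes were called higher and 15.3% lower. The comparisons share samples, so their results are not independent of each other. TPM sums to a fixed total, so the balance of calls over all genes depends on scaling: quantile normalization gave 53.2% instead of 36.8% of called genes higher for NBN against NSC, 49.9% instead of 37.9% for BP against NSC, 51.1% instead of 74.2% for late against mid NSC, 51.3% instead of 74.8% for late against mid BP and 53.4% instead of 63.9% for late against early NBN. For NBN against BP, median ratio scaling gave 52% instead of 41.9%.

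**Figure D3:**
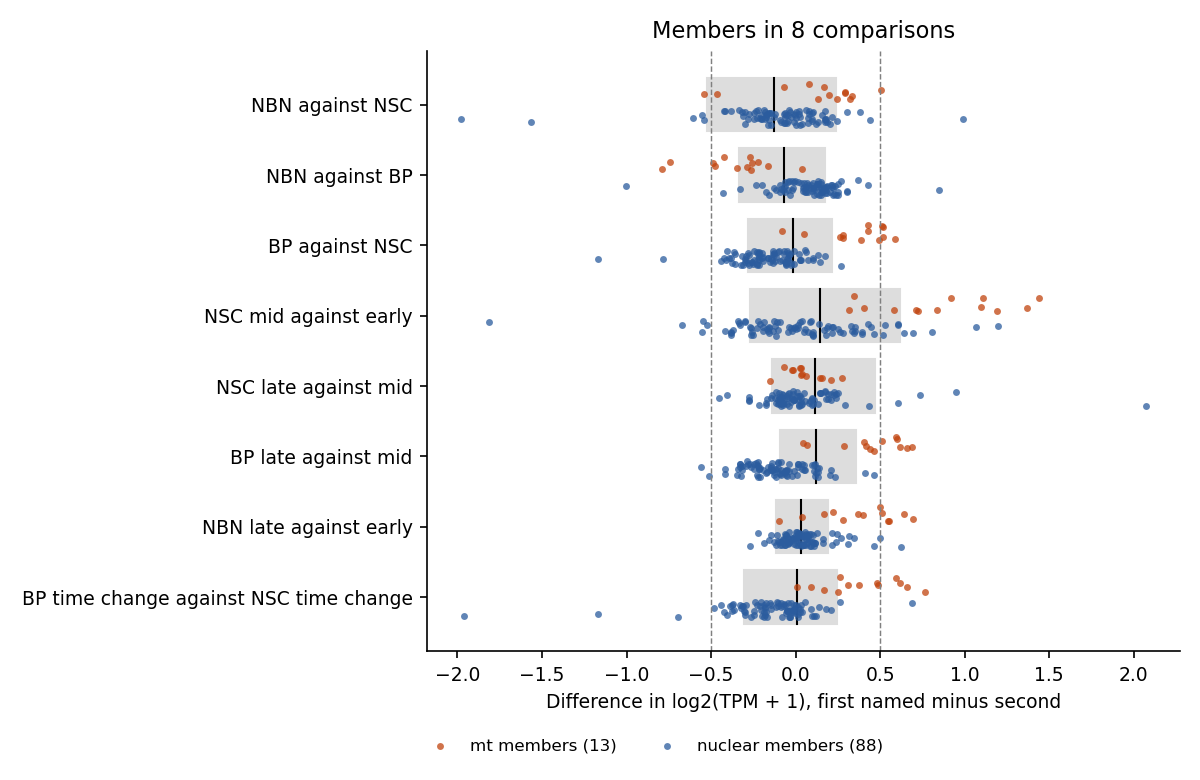
Difference in log2(TPM + 1) of each mitochondrial (13) and nuclear (88) member in 8 comparisons, first named minus second; grey bars span the quartiles of all 15508 genes tested, black ticks are their medians, and dashed lines mark differences of 0.5. The mitochondrial genes lie above most nuclear members in NSC mid against early, where their median is 0.83.

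NBN against NSC asked what differs as neurons form, over the 5 shared stages. Of 88 nuclear members tested, 1, Ndufaf5, was higher in NBN, 5 were lower and 82 were not called. Among all genes 15.1% were called higher and 25.9% lower. Ndufaf5 encodes an assembly factor of complex I. It stood at 47.6, 48.7, 52.9 and 49.4 TPM in NBN at E15.5, against 38.1, 45.7, 35.9 and 40.5 TPM in NSC. At E17.5 it stood at 73.3 and 68.5 TPM in NBN, against 26.9, 27.1 and 27.6 TPM in NSC, and at E18.5 at 80.1, 78.9 and 76.1 TPM in NBN, against 35.4, 25.5 and 24.5 TPM in NSC. NBN libraries lay above NSC without overlap at 5 of 5 stages. The stage means averaged 62.0 TPM in NBN and 31.2 TPM in NSC, a log2 difference of 0.99 ± 0.04 (SE, limma adjusted p = 2.59e-27). Against BP, which averaged 33.7 TPM, NBN were higher by 0.85 ± 0.05 (adjusted p = 1.07e-22), again at 5 of 5 stages without overlap.

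The 5 nuclear members lower in NBN than NSC were Cox6b2, Cox4i2, Atp5g2, Ndufa2 and Ndufc2. Cox6b2, a complex IV subunit known from testis, stood between 0 and 1.81 TPM in the 14 NBN libraries. In NSC it ranged from 0.962 TPM at E15.5 to 14.6 TPM at PN over the shared stages. Its difference of -1.98 ± 0.13 (limma adjusted p = 2.14e-19) is on the log2(TPM + 1) scale, which understates low genes. Cox4i2 averaged 0.342 TPM in NBN and 3.96 TPM in NSC (-1.56 ± 0.11), and of 8 endothelial and pericyte markers 1 was called lower in NBN, 1 higher and 6 neither (median 0.18). Atp5g2, which encodes a precursor of the ATP synthase c subunit, averaged 168 TPM in NBN and 258 TPM in NSC (-0.61 ± 0.04). Ndufa2, an accessory subunit of complex I, averaged 149 TPM in NBN and 218 TPM in NSC (-0.55 ± 0.05), and NBN lay below NSC at 5 of 5 stages without overlap; it overlaps Tmco6 by 66 bases. Ndufc2 averaged 251 TPM in NBN and 379 TPM in NSC (-0.54 ± 0.05), and without PN the difference was -0.43 and was no longer called. With median ratio scaling, which moved the median of all genes by 0.12, Atp5g2 (-0.47), Ndufa2 (-0.41) and Ndufc2 (-0.40) were not called either. The median over the 88 nuclear members was -0.06, against -0.12 over all genes tested, and it was 0.08 with median ratio scaling.

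Of the 13 mitochondrial genes, 10 were higher in NBN than NSC by sign, against 6234 of all 15508 genes. Of the 13, only mt-Co3 was called higher and mt-Nd6 lower. The median of the 13 was 0.20, and it was -0.02 with quantile normalization. Postmitotic neuron markers were higher in NBN (10 of 12 called) and microglia markers too (7 of 7), while neural stem cell (9 of 9), astroglia (7 of 7), interneuron (7 of 7), oligodendrocyte precursor (6 of 6) and dissociation stress genes (8 of 12) were lower, and their part in these differences was not tested. The gene mt-Co3, a core subunit of complex IV, averaged 13114 TPM in NBN and 9269 TPM in NSC, and NBN lay above NSC at 5 of 5 stages without overlap. Its difference of 0.50 ± 0.04 (limma adjusted p = 1.33e-15) lay at the minimum, and with quantile normalization it was 0.22 and not called. It was also not called with array weights (0.49), and was under 0.5 (0.49 at the lowest) without any 1 of NSC E16.5 replicate 3, NSC E17.5 replicate 2, NSC PN replicate 1, NBN E16.5 replicate 1, NBN E18.5 replicate 1 or NBN PN replicate 1. The gene mt-Nd6 (M:13552-14070, minus strand) is the only mitochondrial member on its strand. It averaged 831 TPM in NBN and 1161 TPM in NSC, a difference of -0.54 ± 0.09, which was -0.49 and not called without NBN E16.5 replicate 3, and -0.40 and not called with median ratio scaling. The kit does not mark strand, so reads from the 2 strands cannot be told apart anywhere along mt-Nd6. This holds for each comparison of mt-Nd6 below too. It also overlaps mt-Nd5 (M:11742-13565, plus strand) by 14 bases.

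NBN against BP, within the same reporter line, left fewer members called. Ndufaf5 was higher and Cox6b2 lower among 88 nuclear members, against 11.2% of all genes higher and 15.6% lower. Cox6b2 averaged 0.733 TPM in NBN and 2.39 TPM in BP (-1.001 ± 0.14, limma adjusted p = 1.68e-08), and NBN lay below BP at 4 of 5 stages, but with a pseudocount of 5 it was not called (-0.37). The nuclear median was 0.11, against -0.07 over all genes. By sign, 12 of the 13 mitochondrial genes were lower in NBN (median -0.29), against 9055 of all 15508 genes. Of the 13, 2 were called, both complex I subunits. The gene mt-Nd6 averaged 831 TPM in NBN and 1391 TPM in BP (-0.79 ± 0.10, the largest difference), and mt-Nd5 averaged 774 TPM in NBN and 1260 TPM in BP (-0.74 ± 0.09). The only mitochondrial gene above 0 was mt-Co3 at 0.04. Without BP PN replicate 2 or NBN E16.5 replicate 1, 4 mitochondrial genes were called lower, and 4 were also called without PN. Microglia (6 of 7) and postmitotic neuron markers (7 of 12) were called higher in NBN than BP, and basal progenitor markers lower (8 of 8). Their part in these differences was not tested.

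BP against NSC compared the 2 progenitor types over 8 shared stages. Few members were called: 2 of 88 nuclear ones, both lower in BP, and 4 of 13 mitochondrial ones, all higher. By sign alone, 75 of the 88 nuclear members were lower in BP and 13 higher, with a median of -0.16, against -0.02 over all genes. Of all 15508 genes, 8099 were lower by sign. All 15 ATP synthase subunits were lower by sign (median -0.23), yet none reached the minimum of 0.5. Without E12.5, where NSC stood apart, 69 were lower and 19 higher and the median was -0.12. The 2 nuclear members called were Cox4i2 (0.299 TPM in BP, 2.76 TPM in NSC) and Cox6b2 (3.65 TPM in BP, 7.27 TPM in NSC), both lower, against 15.2% of all genes called lower. With a pseudocount of 5 neither was called.

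Of the 13 mitochondrial genes, 12 were higher in BP than NSC by sign, against 7409 of all 15508 genes. The median of the 13 was 0.43, and it was 0.16 with quantile normalization. Of the 13, 4 were called, against 9.27% of all genes called higher. The called genes were mt-Atp8 and mt-Atp6 of ATP synthase, mt-Co1 of complex IV and mt-Nd4l of complex I. Both mt-Atp6 (0.51) and mt-Nd4l (0.51) lay near the minimum. Leaving out each of 50 libraries in turn, mt-Atp6 lost its call 10 times and mt-Nd4l 6 times. Without PN neither was called. Quantile normalization also took the call of mt-Atp6, and array weights that of mt-Nd4l. Without E12.5, mt-Nd4l and mt-Co1 were not called. The largest difference was that of mt-Atp8, which averaged 9174 TPM in BP and 6150 TPM in NSC (0.59 ± 0.07, limma adjusted p = 5.12e-10). The catalytic subunit gene mt-Co1 ranged from 11625 to 18456 TPM over the 23 BP libraries and from 6085 to 13058 TPM over the 33 NSC libraries. At each of the 8 stages its BP libraries lay above NSC without overlap (0.52 ± 0.04, adjusted p = 2.74e-17), although with quantile normalization its difference was 0.23 and that of mt-Atp8 0.21, neither called. The lowest was mt-Nd6 at -0.08. The count of 4 fell to 2 without NSC E17.5 replicate 2, BP E12.5 replicate 1 or BP PN replicate 1, to 2 without PN, and to 1 with quantile normalization. Postmitotic neuron markers moved with it: 10 of 12 were called higher in BP, and their summed level was 4488 to 7810 TPM in BP libraries, against 1234 to 6870 TPM in NSC of the shared stages. Neural stem cell (9 of 9), astroglia (7 of 7), interneuron (7 of 7) and oligodendrocyte precursor markers (6 of 6) were called lower in BP. So were dissociation stress genes (6 of 12). Of 8 basal progenitor markers only 2 were called higher in BP, and 1 was called lower. The part of all these markers in the mitochondrial difference was not tested.

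NSC were compared between an early window of E10.5 with E11.5 and a mid window of E13.5 to E15.5. Mitochondrial transcripts rose: 10 of 13 were called higher and none lower, against 30.3% of all genes called higher, with a median of 0.83, against 0.14 over all genes. Of the 10, 5 had a difference of at least 1, as did 13.7% of all genes. The largest was mt-Nd6, which averaged 1194 TPM in the mid window and 460 TPM in the early one (1.44 ± 0.13, limma adjusted p = 1.59e-14). Next was mt-Nd4 (M:10167-11544), a complex I subunit, with 2592, 1866, 1806 and 2134 TPM at E13.5, against 461, 548 and 706 TPM at E10.5 and 1319, 1708 and 1276 TPM at E11.5. No mid library reached down to an early one, and the difference was 1.37 ± 0.14. The gene mt-Cytb, the complex III subunit, averaged 4417 TPM in the mid window and 2017 TPM in the early one (1.19 ± 0.11). The smallest difference was that of mt-Co1 at 0.31 ± 0.07, which was not called. Summed, the 13 genes reached 50915 to 68911 TPM at E13.5, against 24635, 28966 and 41054 TPM at E10.5 and 40299 to 44955 TPM at E11.5.

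**Figure D4:**
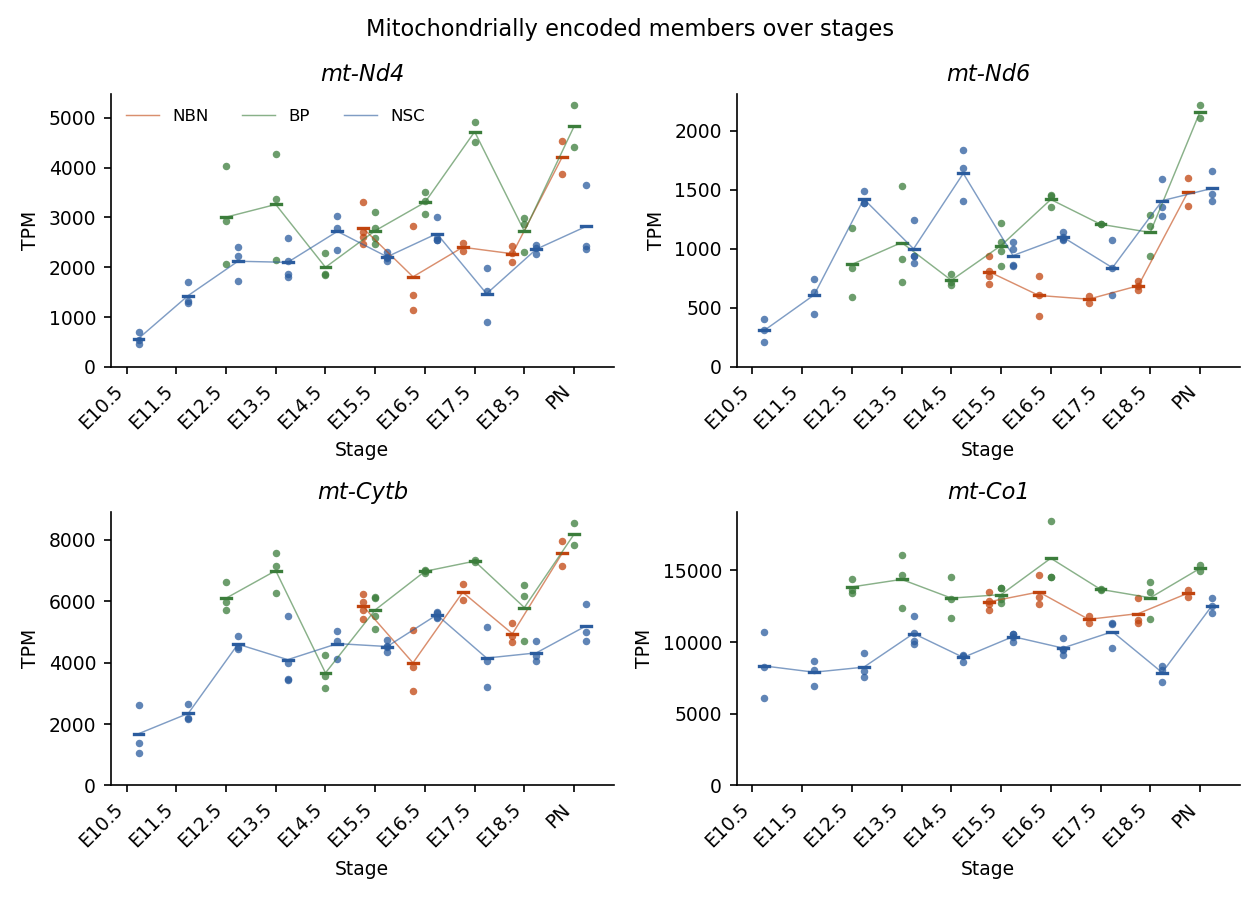
TPM per library of mt-Nd4, mt-Nd6, mt-Cytb and mt-Co1 by stage (points; short bars are group means; NBN, BP and NSC from left to right within a stage). The first 3 are lowest in NSC at E10.5, and mt-Co1 is higher in BP than in NSC at each shared stage.

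The size of this rise depended on E10.5. Without E10.5 the median of the 13 genes was 0.47 and 5 were called, with all 13 still above 0. Blood and neuron markers changed over the same windows. The summed level of 11 erythroid markers was 9594, 6138 and 3745 TPM at E10.5 and 2491, 1687 and 8857 TPM at E11.5, against 11.1 to 554 TPM in later NSC libraries, and 10 of 11 were called lower in the mid window. Postmitotic neuron markers summed to 3033 to 6870 TPM in the mid window, against 1815, 2688 and 3011 TPM at E11.5 and 419 to 540 TPM at E10.5, and 11 of 12 were called higher, as were 7 of 8 basal progenitor and 6 of 7 interneuron markers. Their part in the mitochondrial rise was not tested.

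Nuclear members moved both ways between these windows, with 9 of 88 called higher and 5 lower, both smaller shares than the 30.3% of all genes called higher and 15.3% lower, and a median of 0.00, against 0.14 over all genes. Of 36 complex I subunits 5 were higher and none lower, and of 4 complex II subunits 2 were lower and none higher. No test compared the complexes. Ndufb2, an accessory subunit of complex I, had the largest nuclear rise. It stood at 26.4, 26.8 and 30.1 TPM at E10.5 and 28.6, 28.9 and 34.9 TPM at E11.5, then at 88.2, 77.0 and 107 TPM at E12.5 and 58.4, 51.0, 59.9 and 54.7 TPM at E13.5. Every library from E12.5 on lay above every early one. Its mean was 69.0 TPM in the mid window and 29.3 TPM in the early one (1.199 ± 0.06, limma adjusted p = 1.93e-23). Ndufb2 overlaps Braf by 146 bases on the other strand, whose reads cannot be told apart here.

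Uqcrq (11:53427922-53430831, minus strand), a small subunit of complex III, followed the same course. It stood at 64.9, 57.7 and 68.4 TPM at E10.5 and 72.0, 82.3 and 106 TPM at E11.5, then at 215, 201 and 272 TPM at E12.5. It averaged 156 TPM in the mid window and 75.2 TPM in the early one (1.07 ± 0.07, adjusted p = 4.72e-21). Ndufc2 averaged 269 TPM in the mid window and 153 TPM in the early one (0.81 ± 0.07), the assembly factor Ndufaf3 35.1 and 21.3 TPM (0.69 ± 0.06), Ndufc1 58.1 and 37.0 TPM (0.64 ± 0.06) and Cox6a1, of complex IV, 496 and 324 TPM (0.61 ± 0.05). With median ratio scaling Ndufc1 (0.38), Cox6a1 (0.34) and Ndufaf3 (0.44) were not called. The other 3 called higher were Cox8a (0.60), Ndufa8 (0.53) and Ndufb10 (0.52). Ndufa8 lost its call without NSC E11.5 replicate 1 (0.48), as did Ndufb10 without that library or NSC E14.5 replicate 1 (0.48 at the lowest), and with median ratio scaling none of the 3 was called. Without E10.5 the called counts were 6 higher and 4 lower, with Ndufaf3 at 0.45 no longer called.

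Of the nuclear members that fell, Sdha and Sdhd encode the flavoprotein and a membrane anchor of complex II, and their promoters are printed above. Sdha stood at 229, 240 and 240 TPM at E10.5 and 203, 196 and 175.2 TPM at E11.5, then at 134, 136 and 112 TPM at E12.5. It averaged 148 TPM in the mid window and 214 TPM in the early one (-0.52 ± 0.04, limma adjusted p = 1.90e-18), and without E10.5 the difference was -0.37 and not called. Sdha was also not called with TPM taken without mitochondrial genes. Sdhd stood at 224, 218 and 195 TPM at E10.5 and 174.5, 157 and 178 TPM at E11.5, and reached 83.8 to 99.3 TPM at E16.5. It averaged 119 TPM in the mid window and 191 TPM in the early one (-0.67 ± 0.04, adjusted p = 8.87e-22). No mid library of Sdhd overlapped an early one. Sdhb and Sdhc were not called. Summed over the 4 subunits, complex II was 842 ± 23.1 TPM at E10.5 (SD, n = 3), 567 ± 35.1 TPM at E16.5 (n = 4) and 736 ± 30.2 TPM at PN (n = 3).

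Atp5g2 averaged 248 TPM in the mid window and 363 TPM in the early one (-0.55 ± 0.06). It was not called without NSC E11.5 replicate 3 (-0.49) or with quantile normalization. Cox6b2 (7:4751792-4753094, minus strand) averaged 4.72 TPM in the mid window and 17.3 TPM in the early one (-1.81 ± 0.19). Cox4i2, the last of the 5, averaged 0.678 TPM mid and 1.45 TPM early (-0.55 ± 0.16), and lost its call without NSC E11.5 replicate 3 or NSC E15.5 replicate 1 (-0.41 at the nearest to 0), with a pseudocount of 5 (-0.18), with array weights (-0.43) and without E10.5 (-0.50 after rounding). Within the nuclear sum of NSC, complex I took 24.4 ± 0.4% at E10.5, 28.0 ± 0.7% at E12.5 and 29.5 ± 0.4% at PN (SD, n = 3 each), while ATP synthase took 36.2 ± 0.4%, 32.3 ± 1.1% and 30.3 ± 0.4%. These shares do not depend on the scaling of a library as a whole. The counts do: median ratio scaling, which moved the median of all genes by -0.19, gave 3 nuclear members higher and 19 lower, and the share called higher among all called genes was 46.3% instead of 66.4%.

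**Figure D5:**
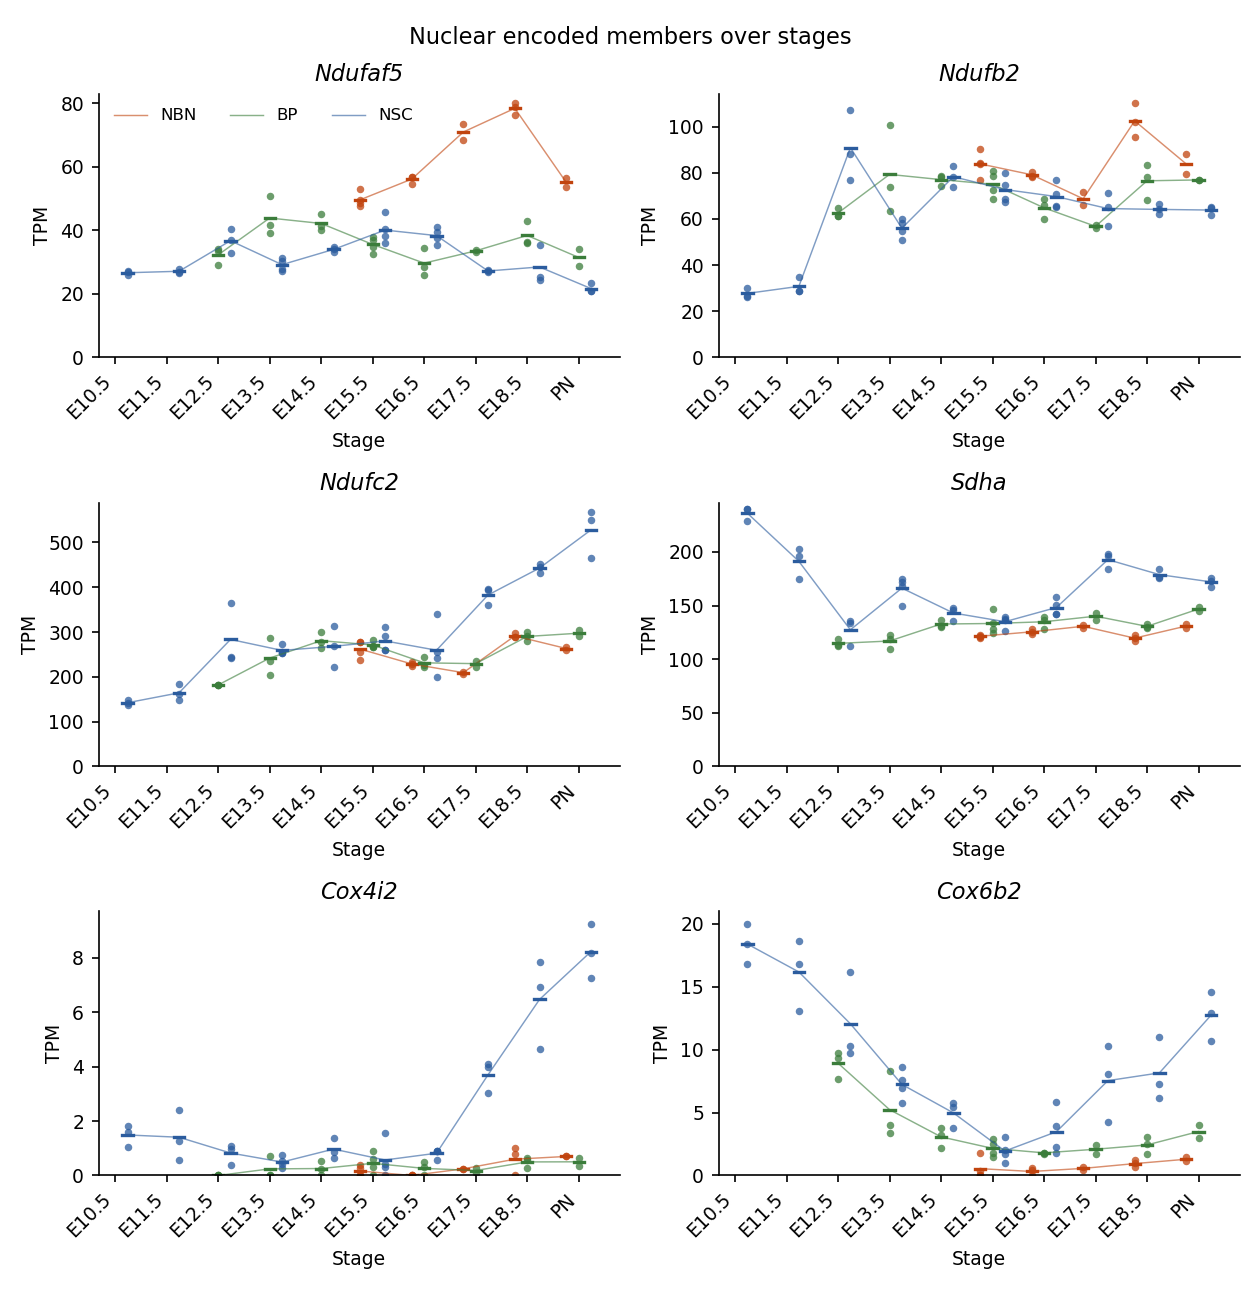
TPM per library of 6 nuclear members by stage (points; short bars are group means; NBN, BP and NSC from left to right within a stage). Ndufaf5 is highest in NBN, Ndufb2 and Sdha change between E11.5 and E12.5 in NSC, and Ndufc2, Cox4i2 and Cox6b2 are higher in NSC at late stages than in the other cells.

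In late NSC (E17.5 to PN) 4 nuclear members were higher than in the mid window and none lower, against 23.6% of all genes higher and 8.2% lower. Cox4i2 (2:152754173-152765037, plus strand), an isoform of the complex IV subunit 4 known from lung and from responses to low oxygen, had the largest difference. It stood at 0 to 1.55 TPM in the 11 mid libraries. In the late window it stood at 4.09, 3.04 and 3.98 TPM at E17.5, 7.85, 6.92 and 4.66 TPM at E18.5 and 9.25, 7.27 and 8.20 TPM at PN, with no overlap with the mid libraries. The difference was 2.07 ± 0.14 (limma adjusted p = 2.66e-19). Ndufc2 averaged 451 TPM in the late window and 269 TPM in the mid one (0.74 ± 0.07), reaching 465.9, 567 and 550 TPM at PN. Cox6b2 averaged 9.48 TPM late and 4.72 TPM mid (0.95 ± 0.16). Atp5s, coupling factor B of ATP synthase, averaged 10.6 TPM late and 6.53 TPM mid (0.61 ± 0.09), and was not called without PN (0.47), with a pseudocount of 5 (0.43) or with quantile normalization (0.27).

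Endothelial and pericyte markers moved with Cox4i2. Of 8 such markers 5 were called higher in late NSC, among them Pdgfrb (21.0 TPM late, 2.02 TPM mid), Rgs5 (14.2 and 2.35 TPM) and Cldn5 (11.4 and 4.09 TPM). The summed level of the 8 was 25.2 to 101.5 TPM in late NSC, against 2.94 to 38.9 TPM in mid NSC. In late NBN and BP libraries, where Cox4i2 was at most 1.00 TPM, the markers summed to 15.7 to 69.7 TPM and 5.92 to 83.9 TPM. Oligodendrocyte precursor (6 of 6) and astroglia (7 of 7) markers were also called higher in late NSC. So were neural stem cell markers (5 of 9) and dissociation stress genes (6 of 12). Postmitotic neuron markers were called lower (11 of 12), and their summed level averaged 1720 TPM late and 4606 TPM mid. The part of all these markers in the rise of Cox4i2 and in the other late changes was not tested. No mitochondrial gene was called between these windows: their median was 0.03 and their range -0.15 (mt-Nd4) to 0.28 (mt-Nd1), and the median was -0.10 without PN and -0.08 with median ratio scaling. At a limma adjusted p below 0.05 and at any size, 1 of the 13 differed, mt-Nd1.

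Late BP, set against BP of the mid window, showed 6 mitochondrial genes higher and none lower, against 15.1% of all genes higher, with a median of 0.47, against 0.12 over all genes. Complex I subunits made up 5 of the 6. The largest was mt-Nd5, which averaged 1336 TPM late and 823 TPM mid (0.69 ± 0.12, limma adjusted p = 2.15e-06), and the smallest was mt-Co1 at 0.04. Without PN 1 gene was called and the median was 0.35. Of nuclear members 2 were lower, against 5.07% of all genes. Cox5a, a complex IV subunit, stood at 250 and 274 TPM at E17.5, 328, 327 and 280 TPM at E18.5 and 298 and 315 TPM at PN, against 362 to 584 TPM in the 10 mid libraries, with no overlap (-0.56 ± 0.05, adjusted p = 3.45e-13). Atp5b, the catalytic beta subunit of ATP synthase, averaged 807 TPM late and 1155 TPM mid (-0.51 ± 0.03, adjusted p = 2.62e-18), but lost its call without BP E14.5 replicate 3, BP E17.5 replicate 1 or PN (-0.50 each, under the minimum before rounding), with quantile normalization (-0.38) or with TPM taken without mitochondrial genes (-0.49). By sign, 64 of 88 nuclear members were lower late (median -0.11), against 5403 of all 15508 genes. Astroglia (5 of 7), interneuron (5 of 7), endothelial and pericyte (5 of 8), microglia (4 of 7) and oligodendrocyte precursor markers (3 of 6) were called higher in late BP, and postmitotic neuron markers lower (5 of 12). Their part in these changes was not tested.

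Late NBN (E17.5 to PN), set against NBN of E15.5 and E16.5, showed 6 mitochondrial genes higher and none lower, against 6.73% of all genes higher and 3.79% lower, with a median of 0.40, against 0.03. The largest was mt-Atp6, which averaged 11244 TPM late and 7134 TPM early (0.70 ± 0.13, limma adjusted p = 3.06e-05), and the lowest was mt-Co1 at -0.10. The change rested on few libraries: 2 genes were called without NBN E16.5 replicate 3, and none without PN or without E16.5. The 3 NBN libraries at E16.5 had mt-Atp6 at 8292, 5026 and 3728 TPM, while PN had 15427 and 13631 TPM. Microglia (7 of 7), oligodendrocyte precursor (5 of 6), astroglia (5 of 7) and interneuron markers (5 of 7) were called higher in late NBN, and postmitotic neuron markers lower (4 of 12). Their part was not tested. Ndufa4l2 was the nuclear member called, at 1.51 TPM late and 0.541 TPM early, and it was not called without NBN E16.5 replicate 1 or NBN PN replicate 1 (0.44 at the lowest), without PN or with a pseudocount of 5.

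The change with time in BP differed from that in NSC, tested as a difference of the 2 late minus mid changes, for 8 members. Of all genes 10.5% were called in the positive and 16.7% in the negative direction. Cox4i2, Cox6b2 and Ndufc2 rose in NSC, and in BP their differences were 0.11 ± 0.15, -0.22 ± 0.18 and 0.04 ± 0.07, which were not called. All 13 mitochondrial genes had a positive difference (median 0.38), as did 7895 of all 15508 genes (median 0.01). Of the 13, the 4 called were complex I genes, with mt-Nd4 at 0.62 ± 0.14 in BP and -0.15 ± 0.13 in NSC (difference 0.77 ± 0.19, limma adjusted p = 4.90e-04). Without PN, mt-Nd6 was no longer called. Atp5sl, named for similarity to Atp5s and known in complex I assembly, was at 0.41 ± 0.06 in BP and -0.28 ± 0.05 in NSC, neither called alone, and their difference was 0.69 ± 0.08 (adjusted p = 2.23e-10).

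Tissue-restricted paralogues were minor next to their common forms. Cox4i1 made up at least 98.6% of the Cox4i sum in every library, and Cox6b1 at least 96.5% of the Cox6b sum. Cox6a2, Cox7b2, Cox8b and Cox8c, known from muscle or testis, were near 0, and Cox8c was listed at 0 in all NBN and BP libraries. Cox7a1, the muscle form, averaged 2.79 ± 1.30 TPM in NBN and 2.41 ± 1.14 TPM in BP, against 2.57 ± 0.84 TPM in NSC. Ndufa4l2, known as a target of low oxygen signalling, was highest in BP at E12.5 with 8.98, 9.74 and 5.82 TPM, and in no library of another group did it exceed 3.99 TPM. The ATP synthase c subunit is made from 3 genes whose mature proteins are identical and whose import signals differ. Atp5g2 supplied 19.7 ± 1.4% of their sum in NBN (SD, n = 14) and 24.7 ± 1.1% in BP (n = 23), against 28.2 ± 3.4% in NSC (n = 33). Atp5g3 supplied 61.9%, 59.9% and 56.4%, and Atp5g1 18.4%, 15.4% and 15.4% in NBN, BP and NSC. In NSC the Atp5g2 share was 34.6 ± 2.0% at E11.5, 23.9 ± 1.1% at E15.5 and 31.3 ± 0.3% at E17.5. The 3 genes are similar in the coding region, so short reads may be split between them with some error.

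Genes that serve the chain but fall outside the symbol rule were counted from lists, to be read against the 15.1% of all genes called higher and 25.9% lower in NBN than NSC, and the 30.3% higher and 15.3% lower in mid than early NSC. Of 37 other assembly factors, 1 was higher and 3 lower in NBN than NSC, and 8 were higher and 5 lower in mid than early NSC. Lyrm7, a complex III assembly factor, averaged 10.5 TPM in NBN and 4.46 TPM in NSC (1.12 on the log2 scale). Of 15 electron carrier genes none was higher and 4 lower in NBN than NSC, with Etfa, the electron transfer flavoprotein alpha subunit, at 35.0 TPM in NBN and 90.9 TPM in NSC (-1.30). Of 9 biogenesis regulators none was higher and 6 were lower in NBN than NSC (median -0.61). Among them the coactivator Ppargc1a averaged 2.48 TPM in NBN and 9.85 TPM in NSC (-1.44), the ETS partner Gabpb2 5.69 and 18.8 TPM (-1.54) and the nuclear receptor Esrrg 1.51 and 6.67 TPM (-1.44). In NSC, Ppargc1a averaged 13.9 TPM late and 3.28 TPM mid (1.72), while Esrra averaged 47.2 TPM mid and 19.7 TPM early (1.25) and Esrrg 7.97 and 2.63 TPM (1.46). Ppargc1a also averaged 2.17 TPM in BP and 7.25 TPM in NSC (-1.10). The largest limma adjusted p among these named genes was 8.53e-08, for Esrrg between mid and early NSC.

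The next 3 lists each had a smaller share called lower in NBN than NSC than the 25.9% of all genes. For the mitochondrial genome's own upkeep, 19 genes of DNA maintenance and expression gave none higher and 2 lower in NBN than NSC, with the polymerase gene Polg at 19.7 TPM in NBN and 45.2 TPM in NSC (-1.09). In mid against early NSC, where mitochondrial transcripts rose, 1 of the 19 was higher and 3 lower. Of 20 mitochondrial ribosomal protein genes none was higher and 2 were lower in NBN than NSC, and none higher and 1 lower in mid than early NSC. Of 14 tricarboxylic acid cycle genes none was higher and 2 lower in NBN than NSC. The largest was Suclg2, a subunit of succinyl-CoA ligase, the step before complex II, at 3.14 TPM in NBN and 26.6 TPM in NSC (-2.58). Suclg2 also averaged 8.94 TPM in BP and 27.2 TPM in NSC (-1.54), and 25.1 TPM in mid and 65.3 TPM in early NSC (-1.35), the same direction as Sdha and Sdhd between those windows. The largest limma adjusted p of Polg and Suclg2 in these comparisons was 5.15e-15.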

How the data were processed

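RNA from 70 sorted samples was sequenced with the TruSeq RNA v2 kit, which does not mark strand, per the labels' protocols. The deposited values are TPM per gene; the submitters' processing notes name kallisto 0.43.0 and the builds GRCm38.p2 and mm10. The sources used here give no further step of the authors. TPM keep no read counts, so depth and counting error are unknown, and precision is given by the spread between libraries. Of 23078 genes, 22361 IDs were in the name table. No 2 libraries held identical values.

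Values were taken as log2(TPM + 1), and a gene was tested where any group averaged 1 TPM or more (15508 genes). A single limma 3.58.1 fit (R 4.3.3) gave each of 23 groups its mean, with 47 residual degrees of freedom, and contrasts weighted stages equally. P-values were adjusted by Benjamini-Hochberg over all genes tested. Calls needed an adjusted p below 0.05 and a log2 difference of at least 0.5. The code was tested on simulated data. Tables and figures used Python 3.11.15, pandas 2.3.3 and matplotlib 3.10.9.

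Nuclear members named were the 6 largest calls in each direction with at least 5 TPM in the higher group, the highest of each complex and all paralogues of fixed families; genes of other lists were named where the difference was at least 1. Members called at lower levels are named too and were picked after their values were seen. The members and lists were chosen with earlier results of these data known. Alternatives were other pseudocounts, filters, scalings, weights, a replicate block and leaving out each library; leaving out E10.5, E12.5, E16.5 or PN in some comparisons was chosen after seeing the data.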

Additional observations from a re-analysis of the deposited data

Results flagged for a closer look

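Among groups of 4 libraries, 2 values stood apart from the rest of their group by Dixon's 95% criterion, of 160 tests made, and chance flags about 1 in 20 groups. The value of mt-Nd4 in NSC at E16.5, replicate 3, was 3019 TPM, and the other 3 libraries stood at 2539 to 2591 TPM. Cox4i2 in NSC at E16.5, replicate 2, was 0.566 TPM, and the others stood at 0.888 to 0.914 TPM.

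The late minus mid change differed between BP and NSC for 8 members by the limma test of the difference itself. In BP minus NSC on the log2(TPM + 1) scale, the differences were 0.77 for mt-Nd4, 0.66 for mt-Nd4l, 0.62 for mt-Nd2, 0.59 for mt-Nd6 and 0.69 for Atp5sl. They were -1.96 for Cox4i2, -1.17 for Cox6b2 and -0.70 for Ndufc2.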

How the results depend on the processing

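No single called member reversed under any alternative run. Medians over members did change sign: for NBN against NSC the nuclear one was 0.08 with median ratio scaling (-0.06) and the mitochondrial one -0.02 with quantile normalization (0.20), and for late against mid NSC the mitochondrial one was -0.10 without PN and -0.08 with median ratio scaling (0.03). For mid against early NSC, median ratio scaling turned 9 nuclear members higher and 5 lower into 3 higher and 19 lower. For single members, 653 values under other settings kept direction and call and 85 lost the call; with 1 library left out 1624 kept it and 54 lost it. Counts of members called moved by over 1.5 times as follows. Of nuclear members, a pseudocount of 5 gave 1 for NBN against BP (main 2), 0 for BP against NSC (2) and 0 for late against early NBN (1). Median ratio scaling gave 22 for mid against early NSC (14) and 4 for late against mid BP (2), where quantile normalization and TPM without mitochondrial genes each gave 1. Late against early NBN also gave 3 with a pseudocount of 0.1, 2 with TPM without mitochondrial genes, 2 with array weights and 0 without PN. Of mitochondrial members, NBN against NSC (2) gave 1 with median ratio scaling, quantile normalization or array weights. NBN against BP (2) gave 4 with quantile normalization, array weights or without PN. BP against NSC (4) gave 1 with quantile normalization and 2 without PN. Mid against early NSC (10) gave 5 without E10.5. Late against mid BP (6) gave 2 with median ratio scaling and 1 without PN. Late against early NBN (6) gave 2 with quantile normalization and 0 without PN or without E16.5. The cause was not tested.

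Leaving out 1 library at a time, mitochondrial counts were 1 to 2 for NBN against NSC, 2 to 4 for NBN against BP, 2 to 5 for BP against NSC and 2 to 7 for late against early NBN. Nuclear counts were 1 to 3 for late against mid BP and 0 to 2 for late against early NBN, with 0 without NBN PN replicate 1 and 2 without NBN E15.5 replicate 1 or 3 or NBN E18.5 replicate 2 or 3. Same-numbered libraries had a median correlation of -0.04 between NBN and NSC, 0.12 between NBN and BP and 0.04 between BP and NSC. For libraries with other numbers the medians were 0.02, -0.03 and -0.05. Of the same-numbered pairs, 1 of 14, 8 of 14 and 9 of 23 had a correlation over 0.1. Whether the replicate numbers pair the samples was not tested. With the replicate number as a block, late against mid NSC gave 5 nuclear members (4 without), and late against mid BP and late against early NBN gave 5 mitochondrial members each (6 without); the other counts were the same. The block gave a replicate number the same effect in every group, so it did not model pairs within a stage. Depth is unknown, so values near 0 cannot be bounded.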
